A study of Mus musculus with 3 samples.

Results

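Arterial endothelial cells line the arteries and arterioles that carry blood into the heart wall. In these data they were the barcodes with at least 3 detected of 8 marker genes (Gja5, Sema3g, Sox17, Fbln5, St8sia6, Lama3, Eps8l2 and Mannr) and at least 1 unique molecular identifier (UMI, a tag that counts single captured transcripts) over the pan-endothelial genes Pecam1, Cdh5, Flt1 and Tie1. They could hold at most 1 UMI over the vein, lymphatic and endocardial genes Lhx6, Mmrn1, Reln, Npr3 and Smoc1, and at most 1 over the fibroblast, macrophage, mesothelial and smooth muscle genes Pdgfra, Csf1r, Muc16 and Myh11. This rule found 260 of 38646 barcodes, of which 67 came from the Myh6-R404Q heart, 38 from the Prkag2-p.R299Q heart and 155 from the WT heart.

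Hearts of male C57/B6J mice were digested with collagenase, strained, and sampled as total cells by droplet sequencing of transcript 3′ ends. The Myh6-R404Q mutation changes the alpha form of the myosin motor of heart muscle, and Prkag2-p.R299Q alters a regulatory subunit of the energy sensor AMP-activated protein kinase. Both are linked to hypertrophic cardiomyopathy, and WT hearts carried neither. There was 1 library per genotype, the number of animals in each is not given in the sources used here, and no test between genotypes was made.

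Arterial identity is set by Notch signalling: the ligands Dll4 and Jag1 activate Notch receptors, whose targets include the repressors Hey1 and Hey2 and the ephrin Efnb2. The transcription factor Sox17 acts in the same programme, and Gja5 encodes connexin 40, a gap junction protein of arterial endothelium. Arteries also differ from capillaries in their wall, which holds elastic fibres built on elastin, and in their release of vasoactive signals such as nitric oxide and endothelin.

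The 3 libraries held 31385005 to 41047991 UMIs over 7951 to 18033 barcodes, with medians of 1559 to 2537 UMIs per barcode. Arterial endothelial cells had median depths of 2605 UMIs in the Myh6-R404Q library, 2446 in the Prkag2-p.R299Q library and 1609 in the WT library. Their counts summed to 274782, 214344 and 429913 UMIs in the same order of libraries. The deepest barcode gave 6.63% of the sum in Myh6-R404Q, 23.2% in the Prkag2-p.R299Q library and 7.54% in WT, and all 3 of these barcodes were called doublets. Doublet calls covered 27 of the 67 cells in Myh6-R404Q, 10 of the 38 in the Prkag2-p.R299Q library and 33 of the 155 in WT. Between 28 and 51 barcode sequences were shared by any pair of libraries.

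The label was checked on 11 arterial genes that the rule does not use. After every cell was thinned to 1000 UMIs, at least 2 of these genes were detected in 36 of 64 arterial cells in Myh6-R404Q, in 21 of 35 in the Prkag2-p.R299Q library and in 81 of 138 in WT. Those shares were 56.2%, 60.0% and 58.7%. Other endothelial cells had at least 2 pan-endothelial genes, at most 1 of the 8 markers, and the same limits on excluded genes as the members. Cells rich in those vein, lymphatic and endocardial genes were thus left out of both sets. In other endothelial cells the shares were 15.9%, 14.7% and 15.4%. In barcodes with no pan-endothelial UMI, which hold other cell types as well as free RNA, the shares were 4.63%, 4.92% and 5.26%. Without thinning, the shares in arterial cells were 95.5%, 89.5% and 76.8%. One of the 11 genes, Mecom, lies next to the rule marker Mannr. At 1000 UMIs, at least 1 gene besides Mecom was found in 57.8%, 60.0% and 60.9% of arterial cells. The shares were 23.2%, 22.4% and 21.8% in other endothelial cells, and 10.97%, 10.6% and 12.3% in barcodes with no pan-endothelial UMI. The arterial genes outside the rule were therefore found about as often in each library, and more often than in either comparison set. The contrast without Mecom was smaller, but it asked for at least 1 gene and not 2, so the part of Mecom cannot be told apart. Of those 11 genes, Cxcr4 had no UMI in arterial cells of either mutant and Hey2 had none in the Prkag2-p.R299Q library.

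The markers of the rule were detected unevenly among the members, and these values describe the selection. Gja5 was present in 23 of 67 cells in Myh6-R404Q, 11 of 38 in the Prkag2-p.R299Q library and 80 of 155 in WT. Fbln5, a fibulin that helps assemble elastic fibres, was present in 38, 28 and 108 cells. Mannr, a noncoding RNA next to Mecom, was present in 41, 21 and 61 cells. Exactly 3 markers were detected in 32 Myh6-R404Q, 15 Prkag2-p.R299Q and 74 WT cells, so many members stood at the threshold, and 81, 43 and 130 further barcodes met every other condition with exactly 2 markers.

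For Bmx and Cd36 the cells formed a gradient across the threshold. Bmx, a tyrosine kinase gene of arterial endothelium that the rule does not use, stood at 108 CPM (counts scaled to a common total per library and cell set) in members with 3 markers, 305 CPM with 4 and 589.8 CPM with 5 or more. It stood at 60.5 CPM in the barcodes just outside the rule with 2 markers. Cd36, a fatty acid transporter of capillary endothelium, was at 1374, 1283 and 891 CPM with 3, 4, and 5 or more markers, and at 1600.0 CPM with 2. Ttn, the cardiomyocyte gene for titin, was at 14620.0, 8848 and 4466 CPM in the same order, and at 12480.0 CPM with 2 markers. Ttn was thus lowest in the cells with 5 or more markers, but higher with 3 markers than with 2. These levels are sums over the 3 libraries, so the deepest barcodes weigh most in them.

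**Figure D1:**
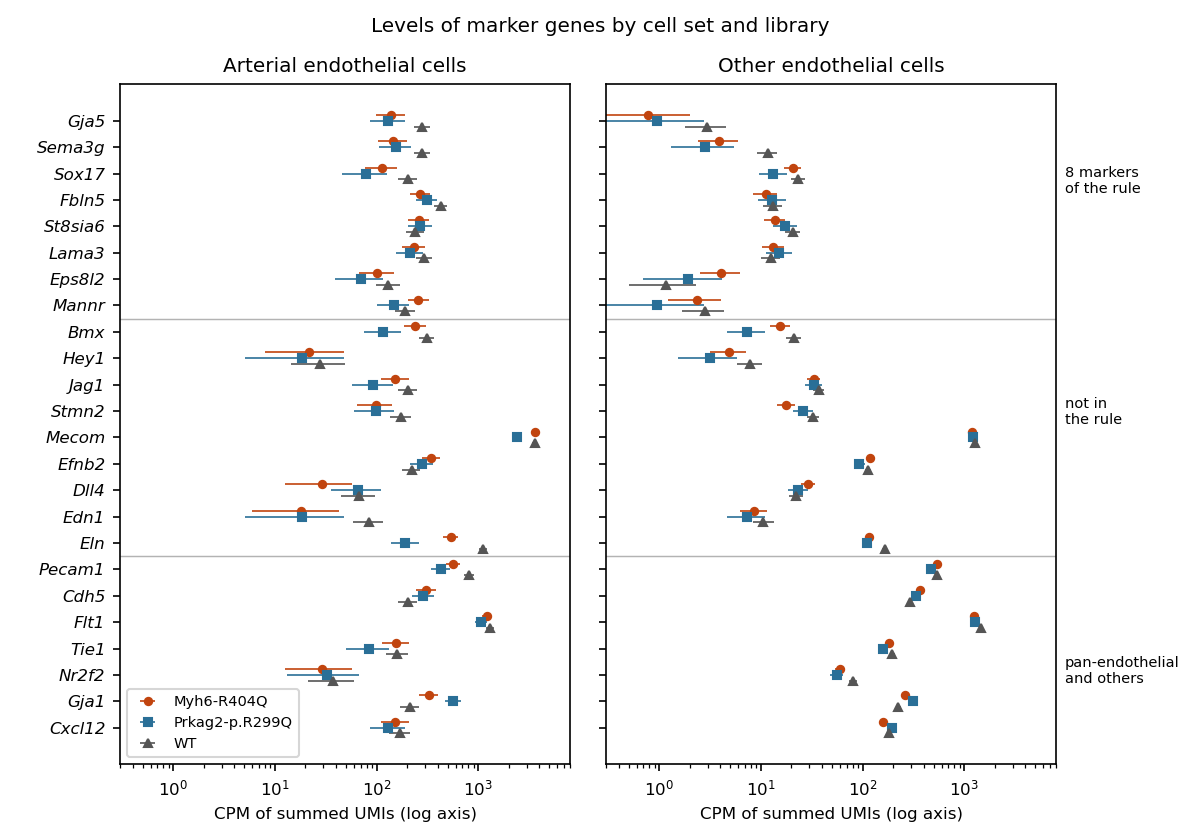
CPM of summed UMIs (horizontal log axis, with 95% exact Poisson intervals) of 24 genes in arterial endothelial cells (left) and other endothelial cells (right), with 1 point per library: Myh6-R404Q, Prkag2-p.R299Q and WT. The 8 rule markers differ by construction; among genes outside the rule, Bmx lies at 117 to 314 CPM in arterial cells, against 7.28 to 21.1 CPM in other endothelial cells, whereas Gja1 and Cxcl12 overlap between the cell sets.

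Genes that accompany the arterial markers were sought by comparing arterial with other endothelial cells within each library. The 8 markers had been picked from earlier results on the same libraries, so the test shows how evenly other genes moved with them over 3 libraries. edgeR's quasi-likelihood test with Benjamini-Hochberg adjustment, on 6 sums of counts with the library as a block, called 231 genes higher (1.9% of 12126 tested) and 163 lower (1.34%). The genes of the rule were left out. Of those calls, 217 higher and 163 lower genes had the same direction in all 3 libraries. Without the Myh6-R404Q library 98 genes were called higher and 57 lower, and without the WT library 107 and 83. Cells of a library share its RNA pool, and a p-value here measures only the spread over these 3 libraries.

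Bmx had the largest difference among the genes named by size. It stood at 240.2 CPM in Myh6-R404Q, 117 in the Prkag2-p.R299Q library and 314 in WT arterial cells, against 15.6, 7.28 and 21.1 CPM in other endothelial cells. The groups did not overlap, and the fitted log2 difference was 3.97 (edgeR adjusted p = 6.2e-22). Bmx lies on chromosome X at 164192842 to 164258193, minus strand, of mm10.

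Several genes of the Notch pathway rose in arterial cells. The ligand gene Jag1 was at 153, 93.3 and 205 CPM in Myh6-R404Q, Prkag2-p.R299Q and WT arterial cells, against 33.2, 33.2 and 37.0 CPM in other endothelial cells, a log2 difference of 2.20 (edgeR adjusted p = 5.81e-12). Hey1 rested on few transcripts, with 6, 4 and 12 UMIs in arterial cells, at 21.8, 18.7 and 27.9 CPM against 4.88, 3.17 and 7.82 CPM, and differed by 2.11 (edgeR adjusted p = 0.00649). Efnb2, the arterial ephrin, was at 346, 279.9 and 221 CPM against 119, 93.4 and 113 CPM, a log2 difference of 1.39 (edgeR adjusted p = 4.17e-09). All 3 genes were higher in every library. Hey1 lost its call under 3 of the 15 alternatives that tested it, among them those without the Myh6-R404Q library (edgeR adjusted p = 0.143) and without WT (edgeR adjusted p = 0.129).

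Dll4 was called as well, although its difference was uneven. It was at 29.1 CPM in Myh6-R404Q, 65.3 in the Prkag2-p.R299Q library and 67.5 in WT arterial cells, against 29.1, 23.4 and 22.1 CPM in other endothelial cells. The Myh6-R404Q library showed no difference, with a log2 value of 0.00 (fitted 1.20, edgeR adjusted p = 0.00871, from 0.000297 to 0.548 over the alternatives), and the call was lost under 5 of 16 alternatives, among them that without the WT library (log2 0.81, edgeR adjusted p = 0.548). Of the list of 29 arterial and Notch genes, 24 were tested, 11 rose, 1 fell and 12 were not called. Their median log2 difference was 0.84, against -0.01 over all genes tested. The other genes of the list that rose were Stmn2, Tmem100, Alpl, Mecom, Epas1 and Notch1, and Nrp1, a semaphorin and VEGF co-receptor, was the one that fell.

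Gap junction genes other than the rule marker Gja5 were not called. Gja4 had 4, 1 and 6 UMIs in arterial cells, too few to place it (log2 1.23, edgeR adjusted p = 0.494), and was called higher under 1 of the 11 alternatives that tested it, that without doublets (log2 2.36, edgeR adjusted p = 0.0231). Gja1, which encodes connexin 43, was at 328, 569 and 212 CPM, against 259.9, 314 and 226 CPM in other endothelial cells, and was not called (log2 0.42, edgeR adjusted p = 0.164). In WT it was not higher in arterial cells. The chemokine gene Cxcl12 was at 153, 131 and 169.8 CPM against 159.6, 196 and 183 CPM, with a log2 difference of -0.17 (edgeR adjusted p = 0.831).

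Several of the steepest differences concerned signalling and secreted proteins. Pcsk5, a proprotein convertase, was at 462, 345 and 409 CPM in Myh6-R404Q, Prkag2-p.R299Q and WT arterial cells, against 31.4, 18.4 and 45.6 CPM in other endothelial cells (log2 3.72, edgeR adjusted p = 2.13e-20). Fn1, the gene for fibronectin, was at 171, 98.0 and 191 CPM against 27.7, 31.7 and 32.9 CPM (log2 2.40, edgeR adjusted p = 4.85e-13). The remaining genes named by size on the higher side were Atp2a3 (an endoplasmic reticulum calcium pump), Specc1, Gcnt1, Eva1c, Afap1l2, Plcg2 (a phospholipase C), Stmn2 (a stathmin), Eogt, Crispld1 and Esr1 (estrogen receptor alpha), with log2 differences of 2.11 to 3.37. Esr1 was not called without the WT library (edgeR adjusted p = 0.102), and was called under the 15 other alternatives. Eva1c and Crispld1 each overlap a called gene on the opposite strand, and such reads cannot be told apart unless strand was used.

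The promoters of Pcsk5 and Eva1c are shown because both genes were among the steepest and both hold the letters GTGGGAA, a core bound by RBPJ, the DNA-binding partner of Notch. They are the 250 bases before the RefSeq gene start in GRCm38.p6, printed in the direction of transcription, with the motif or its reverse complement TTCCCAC in capitals. Pcsk5 is on the minus strand at chr19:17837633-17837882, with the motif starting 69 bases before the gene start, and Eva1c on the plus strand at chr16:90830609-90830858, with it starting 161 bases before. In GENCODE M21, Eva1c starts at 90826719, so its printed window lies inside the gene as annotated there.
Pcsk5: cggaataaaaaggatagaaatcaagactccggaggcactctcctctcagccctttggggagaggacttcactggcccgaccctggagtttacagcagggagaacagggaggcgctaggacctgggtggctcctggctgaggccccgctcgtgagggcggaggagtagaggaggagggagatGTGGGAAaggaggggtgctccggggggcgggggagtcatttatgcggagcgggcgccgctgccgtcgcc
Eva1c: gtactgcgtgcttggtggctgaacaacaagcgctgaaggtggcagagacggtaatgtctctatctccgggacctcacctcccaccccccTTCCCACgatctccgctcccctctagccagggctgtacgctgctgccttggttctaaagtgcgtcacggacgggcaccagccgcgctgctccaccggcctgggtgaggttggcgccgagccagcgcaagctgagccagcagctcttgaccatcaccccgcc
On either strand, the motif was found in 13 of 170 genes called higher that had a promoter window of 300 bases (7.65%), in 658 of 9266 tested genes (7.10%) and in 1958 of 27025 genes in all (7.25%). Of the 15 genes named by size on the higher side, 11 had a window and 2 held the motif, those printed. Of the Notch and arterial genes, Hey2 held it, and it was not found in the windows of Jag1, Dll4, Efnb2, Nrarp, Notch1, Notch4, Gja5 and Bmx. A match is a description of letters and not a binding site, and no match says only that these letters are not in this window.

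BMP signalling genes differed in part. Smad6, an inhibitory Smad that restrains BMP signals, was at 189 CPM in Myh6-R404Q, 279.9 in the Prkag2-p.R299Q library and 407 in WT arterial cells, against 50.3, 41.8 and 62.7 CPM in other endothelial cells (log2 2.53, edgeR adjusted p = 9.22e-16). Of 23 genes tested in the TGF-beta and BMP list, 5 rose (Smad6, Smad7, Id1, Tmem100 and Ltbp4), 1 fell (Smad1) and 17 were not called, with a median of 0.24. Smad6 and Smad7 are both inhibitory Smads, and Id1 is a known BMP target.

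Vasoactive genes rose in a few cases. Edn1, which encodes endothelin 1, a peptide that constricts vessels, was at 18.2, 18.7 and 83.7 CPM in Myh6-R404Q, Prkag2-p.R299Q and WT arterial cells, against 8.59, 7.28 and 10.6 CPM in other endothelial cells (log2 2.29, edgeR adjusted p = 2.71e-05). It was not called without the WT library (log2 1.23, edgeR adjusted p = 0.684). Nos3, the endothelial nitric oxide synthase, was at 113, 84.0 and 216 CPM against 89.8, 80.4 and 82.3 CPM (log2 0.81, edgeR adjusted p = 0.0191), with little difference in either mutant library. The Nos3 call was lost under 6 of 16 alternatives, among them those without WT (log2 0.25, edgeR adjusted p = 0.936), without Myh6-R404Q (edgeR adjusted p = 0.107) and by DESeq2 (adjusted p = 0.408). Of 21 genes tested in this list, Edn1, Trpv4, Ace and Nos3 rose, Ptgs1 fell and 16 were not called, with a median of 0.13.

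Elastin was high and variable. Eln (chromosome 5 at 134702593 to 134747323, minus strand) was at 539 CPM in Myh6-R404Q, 191 in the Prkag2-p.R299Q library and 1105 in WT arterial cells, against 117, 111 and 165 CPM in other endothelial cells. The groups did not overlap, but 15 of the 41 Prkag2-p.R299Q arterial UMIs lay in 1 barcode. Without those UMIs the level there was 121 CPM, below that of other endothelial cells in WT. The spread over libraries was wide and edgeR did not call Eln (log2 2.13, adjusted p = 0.19), whereas DESeq2 did (adjusted p = 9.91e-12). Leaving out any 1 library also gave a call, with log2 differences of 1.66 without WT, 2.02 without Myh6-R404Q and 2.54 without Prkag2-p.R299Q (edgeR adjusted p = 1.86e-12, 0.0036 and 3.05e-85). Of 16 elastic fibre genes tested outside the rule, Fbln2 and Ltbp4 rose and 14 were not called, with a median of 0.06.

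On the lower side, 5 of 17 capillary genes were called. Aqp1, a water channel of capillary endothelium, was at 47.3, 28.0 and 32.6 CPM in Myh6-R404Q, Prkag2-p.R299Q and WT arterial cells, against 191, 138 and 174 CPM in other endothelial cells (log2 -2.20, edgeR adjusted p = 4.44e-10). Aqp1, Car4, Aplnr, Slc28a2 and Rgcc fell, none rose and 12 were not called, with a median of -0.46; of these only Aqp1 was among the genes named by size. Hdac9, a histone deacetylase, was at 378, 443 and 365 CPM against 1248, 1269 and 1183 CPM (log2 -1.60, edgeR adjusted p = 1.34e-13). Calcrl, the receptor for adrenomedullin and CGRP, was at 127, 135 and 97.7 CPM against 333, 346 and 387 CPM (log2 -1.56, edgeR adjusted p = 1.23e-09). The arterial and other cells did not overlap for any of these 3 named genes.

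The other genes named by size on the lower side were Samd5, Rasa4, Ccdc85a, Fmo1, Tmtc2, Ephb1, Inf2, Nav3, Atp8b5, Car8 and Trp53i11, with log2 differences of -2.26 to -1.52. Rasa4 was not called without WT (edgeR adjusted p = 0.0559), and Atp8b5 and Trp53i11 were not called without Myh6-R404Q (edgeR adjusted p = 0.218 and 0.0794). Over the 16 alternatives, Trp53i11 lost its call under 5 and Atp8b5 under 3. Ephb1 lost it with no replicate block (edgeR adjusted p = 0.145) and Inf2 with 4 or more markers (edgeR adjusted p = 0.147). Among 12 vein genes tested, Nrp2, Tll1, Emcn and Nr2f2 fell and Vegfc and Mgp rose. The limit on Lhx6 and the lymphatic and endocardial genes held in both sets, so this is not a comparison with vein cells. A shorter list of 6 vein markers, Vegfc among them, summed to more in arterial cells in each library. The sums were 895, 438.5 and 972 CPM in Myh6-R404Q, Prkag2-p.R299Q and WT, against 493, 399 and 525 CPM in other endothelial cells. Nr2f2, which encodes the venous regulator COUP-TFII, was at 29.1, 32.7 and 37.2 CPM in arterial cells, against 60.1, 56.0 and 80.7 CPM in other endothelial cells (log2 -0.97, edgeR adjusted p = 0.0259). Nr2f2 lost its call under 9 of 16 alternatives, among them those without Myh6-R404Q (edgeR adjusted p = 0.28), without WT (edgeR adjusted p = 0.407) and by DESeq2 (adjusted p = 0.492).

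General endothelial genes moved in both directions. Cldn5 rose and Calcrl, Emcn, Adgrl4 and Fli1 fell among 20 pan-endothelial genes tested, with a median of 0.07; 1.9% of all genes tested rose and 1.34% fell. Col18a1 rose and Hspg2 fell among 19 basement membrane genes. Efnb2, Efna1 and Plxna4 rose and Nrp2, Sema6a and Nrp1 fell among 23 guidance genes. Tef rose among 18 clock genes and Jam3, which fell, among 8 adhesion genes. None of 15 immediate early, 14 heat shock, 19 interferon response, 13 MHC class I, 8 AMPK and 7 acute phase genes passed edgeR's test. At an unadjusted p under 0.05, edgeR counted 1370 genes over all 12126 tested, and DESeq2 called 184 over the same genes.

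Markers of other cells were present in both sets. None of 10 cardiomyocyte markers was called over all members, and their summed level was 29020.0, 38320.0 and 28330.0 CPM in Myh6-R404Q, Prkag2-p.R299Q and WT arterial cells, against 31080.0, 33330.0 and 31930.0 CPM in other endothelial cells. Myh6, one of them, was called lower in arterial cells under 3 of 16 alternatives: without doublets (log2 -0.94, edgeR adjusted p = 2.46e-10), with 4 or more markers (log2 -0.82, edgeR adjusted p = 0.00494) and without the deepest 10% (log2 -0.45, edgeR adjusted p = 0.0214). Pericyte markers summed to 928, 676 and 1033 CPM against 585, 666 and 716 CPM, and 1 of 7, Rgs5, was called higher. Smooth muscle markers, of which Myh11 was limited in both sets, summed to 408, 620.5 and 433 CPM against 473, 540.2 and 510 CPM, and none of 4 tested was called. The part of these markers in the results was not tested.

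**Figure D2:**
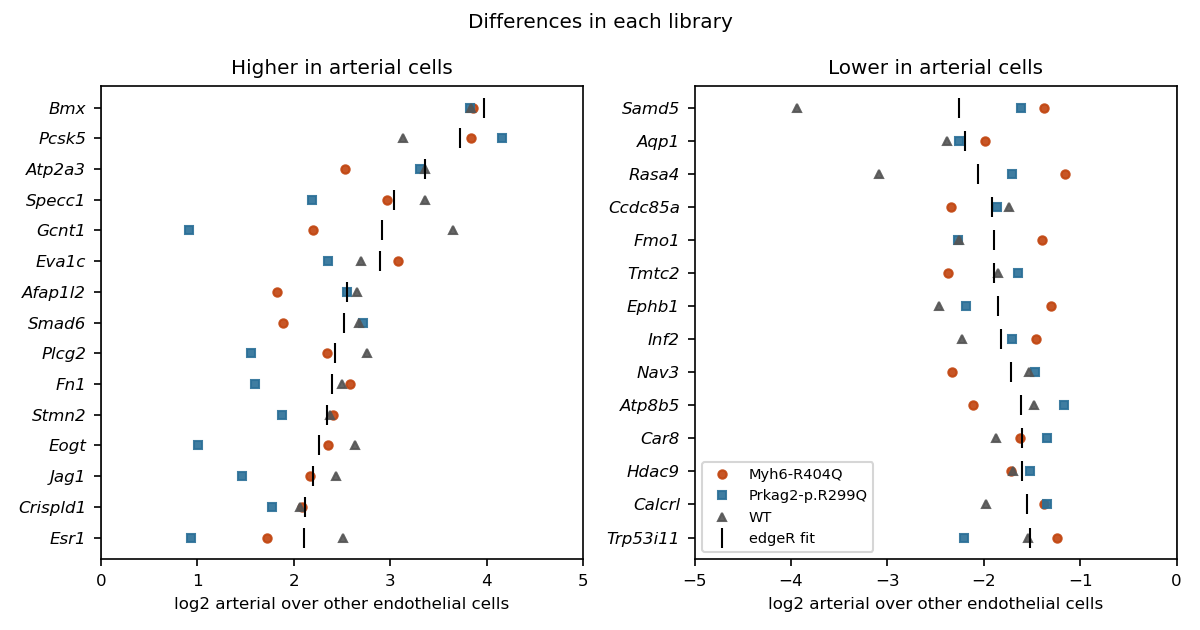
Log2 ratio of CPM in arterial over other endothelial cells (horizontal axis) for the 15 genes named by size on the higher side (left) and 14 on the lower side (right), with 1 point per library and a bar for the edgeR fit. All points lie on the side of their group by construction, since genes were named only with 1 direction in 3 libraries. Bmx is nearly equal in the 3 libraries, whereas Gcnt1 and Samd5 spread by more than 2 log2 units.

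The share of arterial endothelial cells was lower in both mutant libraries than in WT. They made up 0.529% of barcodes in Myh6-R404Q (95% exact interval 0.410 to 0.672%) and 0.478% in the Prkag2-p.R299Q library (0.338 to 0.655%), against 0.860% in WT (0.730 to 1.005%). The ratio to WT was 0.616 for Myh6-R404Q (0.463 to 0.819) and 0.556 for Prkag2-p.R299Q (0.390 to 0.792). These intervals cover counting error within 3 libraries only and there is no replicate check. The mutant libraries were deeper per barcode, which makes it easier to detect 3 markers. When every barcode was thinned to 1000 UMIs, leaving out 1594 barcodes in Myh6-R404Q, 850 in the Prkag2-p.R299Q library and 4240 in WT, the shares were 0.190%, 0.183% and 0.464%, with ratios to WT of 0.409 and 0.395.

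The choice of denominator bore on the size of the gap. Of barcodes with at least 2 pan-endothelial genes, arterial cells with the same property were 1.81% in Myh6-R404Q and 2.05% in the Prkag2-p.R299Q library, against 2.72% in WT. The ratio was 0.667 (0.493 to 0.902) for Myh6-R404Q and 0.756 (0.516 to 1.11) for Prkag2-p.R299Q, and the second interval includes 1. Both mutants had ratios below 1 under each of the 7 alternatives tried.

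Gene levels of arterial cells were then set side by side between genotypes. A level of 50 CPM in 1 of the libraries and 20 UMIs over both were reached by 4728 genes, of which 217 were at least 2-fold higher in Myh6-R404Q (4.59%) and 114 at least 2-fold lower (2.41%). TMM scaling, which shifted all genes by -0.11 log2 units, gave 141 higher and 178 lower, so the balance of directions is not settled. For Prkag2-p.R299Q, 219 of 4650 genes were at least 2-fold higher (4.71%) and 351 lower (7.55%), and TMM scaling gave a similar split. With 1 library each these are descriptions.

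Elastin was lower in arterial cells of both mutants. It was detected in 40 of 67 cells with 148 UMIs in Myh6-R404Q and in 10 of 38 cells with 41 UMIs in the Prkag2-p.R299Q library, against 96 of 155 cells with 475 UMIs in WT. The level in Myh6-R404Q was 0.488 times that in WT (exact interval 0.403 to 0.588) and in the Prkag2-p.R299Q library 0.173 times (0.123 to 0.238). In other endothelial cells the log2 ratios were -0.50 and -0.57, smaller than the -1.03 and -2.52 in arterial cells. Both log2 ratios stayed negative under all 9 alternatives, from -1.18 to -0.69 in Myh6-R404Q and from -2.54 to -1.55 in the Prkag2-p.R299Q library. At 1000 UMIs per cell, Eln was detected in 31.2% of arterial cells in Myh6-R404Q and 11.4% in the Prkag2-p.R299Q library, against 54.3% in WT. The same shares in barcodes without a pan-endothelial UMI were 15.2%, 8.15% and 9.25%. Those barcodes include other cell types, fibroblasts among them, so their share is not a measure of free RNA alone. The Prkag2-p.R299Q share in arterial cells was close to theirs and rested on 35 cells.

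Endothelin 1 was also lower in both mutants. Edn1 had 5 UMIs in 4 cells in Myh6-R404Q and 4 UMIs in 4 cells in the Prkag2-p.R299Q library, against 36 UMIs in 27 cells in WT. Its log2 ratio to WT was -2.14 in Myh6-R404Q and -2.11 in the Prkag2-p.R299Q library, and it stayed negative under all 9 alternatives in both. Ptchd1 had 4 UMIs in Myh6-R404Q and 0 in the Prkag2-p.R299Q library, against 37 UMIs and 86.1 CPM in WT. The count of 0 stands for up to 14 CPM at 3 counts, and up to 17.2 CPM by the exact Poisson interval.

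Single genes of BMP signalling, matrix and clotting were lower in the Prkag2-p.R299Q library. Of the measured genes at least 2-fold lower there were 3 of 17 in the TGF-beta and BMP list (Bmpr2, Tmem100 and Bmp6), 1 of 5 in the elastic fibre list (Eln) and 0 of 11 in the basement membrane list, against 7.55% of all genes. Bmp6, a BMP ligand, was at 79.3 CPM against 539.6 CPM in WT (0.147-fold, exact interval 0.0842 to 0.241), and was at 427 and 535 CPM in other endothelial cells of the same libraries. Vwf, von Willebrand factor, was at 23.3 CPM with 5 UMIs against 193 CPM in WT with 83 UMIs, and Mgp, an inhibitor of calcification, at 135 against 339.6 CPM. Rph3al was at 9.33 against 130.3 CPM, and Bmpr2, a BMP receptor, at 219 against 484 CPM. The log2 ratio of Bmpr2 was -1.14 and ranged from -1.15 to -0.51 over 9 alternatives, so it was not 2-fold in all of them. In Myh6-R404Q, Bmp6, Vwf and Mgp were at 360.3, 189 and 295 CPM, closer to WT.

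Some genes of arterial identity and vessel tone were lower in the Prkag2-p.R299Q library. Bmx was at 117 against 314 CPM in WT, Nos3 at 84.0 against 216 CPM and Notch4 at 18.7 against 83.7 CPM. Notch4 rested on 4 UMIs in 3 cells there, against 36 UMIs in WT. In other endothelial cells the log2 ratio of Bmx was -1.42, close to that in arterial cells. The log2 ratios of Nos3 and Notch4 in other endothelial cells were -0.03 and 0.18. Of 15 measured arterial and Notch genes, 4 were at least 2-fold lower (Jag1, Tmem100, Notch4 and Bmx) and 1, Rbpj, was higher. Their median log2 ratio was -0.56, against -0.06 over all genes. Other lists had medians of -0.59 (18 pan-endothelial genes), -1.13 (8 vein genes) and 0.33 (12 capillary genes), so lower levels were not particular to arterial genes. Dll4 was at 65.3 against 67.5 CPM in WT and Efnb2 at 279.9 against 221 CPM. Erythroid markers, 4 of 4 of them detected in each library, summed to 149 CPM in Myh6-R404Q arterial cells and 489.9 CPM in the Prkag2-p.R299Q library, against 55.8 CPM in WT, and to 229 and 229 against 61.1 CPM in other endothelial cells. The part of blood cell RNA in these ratios was not tested. Among members with 4 or more markers the log2 ratios in the Prkag2-p.R299Q library were smaller, at -0.41 for Bmx and -0.41 for Nos3, against -1.42 and -1.36 over all members. In Myh6-R404Q, Dll4 and Tmem100 were lower and Rbpj higher, with a median of -0.20 against 0.03. Smad6 was at 189 CPM in Myh6-R404Q against 407 CPM in WT. Its log2 ratio was -1.10, and -0.43 with doublets left out. Fosl2, Fxyd5, Atp10a, Spata1 and Msl2 were the further genes lower by size in Myh6-R404Q, with log2 ratios of -2.62 to -1.71. They had 4, 3, 7, 4 and 9 UMIs there, in the order named. The first 3 were also below WT in the Prkag2-p.R299Q library. Fosl2 was at 27.99 CPM there against 74.4 in WT, and Fxyd5 at 18.7 against 72.1. Atp10a had a log2 ratio of -2.785. Whether the single WT library was high for these genes was not tested.

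Higher levels in the mutants involved other genes. Nrp2, a receptor of vein and lymphatic endothelium, was at 222 CPM in 21 cells in Myh6-R404Q against 65.1 CPM in 17 cells in WT. Gja1 was at 569 CPM in the Prkag2-p.R299Q library against 212 CPM in WT, with 36 of its 122 UMIs in 1 barcode. Its log2 ratio was 1.42, and 0.54 among members with 4 or more markers. The Myh6-R404Q genes Amz2, Hacl1, Cacna1d, Disc1, Map2k6, Rbbp5, Eipr1 and Syap1 had log2 ratios of 1.89 to 2.47 over 10 to 17 cells. With doublets left out, Map2k6 was at 0.42 and Cacna1d at 1.26. Iigp1, an interferon-induced GTPase, was at 131 against 32.6 CPM, with 14 of 36 UMIs in 1 barcode, and its log2 ratio of 1.98 was 0.77 without doublets.

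Some ratios rested on single barcodes. Rbpj had 33 of 120 UMIs in 1 barcode in Myh6-R404Q, 43 of 110 in 1 barcode in the Prkag2-p.R299Q library and 16 of 89 in WT. Its log2 ratio to WT was 1.07 in Myh6-R404Q and 1.31 in the Prkag2-p.R299Q library, and -0.53 and 0.02 with doublets left out. In Prkag2-p.R299Q, Nppa had 28 of its 32 UMIs in 1 barcode, and Prkcb, Bank1 and Ptprc, genes of leukocytes, had 15, 10 and 6 UMIs in their highest barcode. In WT, Csmd1 had 56 of 91 UMIs, Cadm2 47 of 78, Cdh19 25 of 31 and C7 15 of 48 in 1 barcode. The cardiomyocyte gene Myh6 itself was at 7500.0 CPM in Myh6-R404Q and 10970.0 CPM in the Prkag2-p.R299Q library, against 6145 CPM in WT, and Prkag2 at 76.4 and 56.0 against 48.9 CPM. A 3′ count does not read either point mutation.

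**Figure D3:**
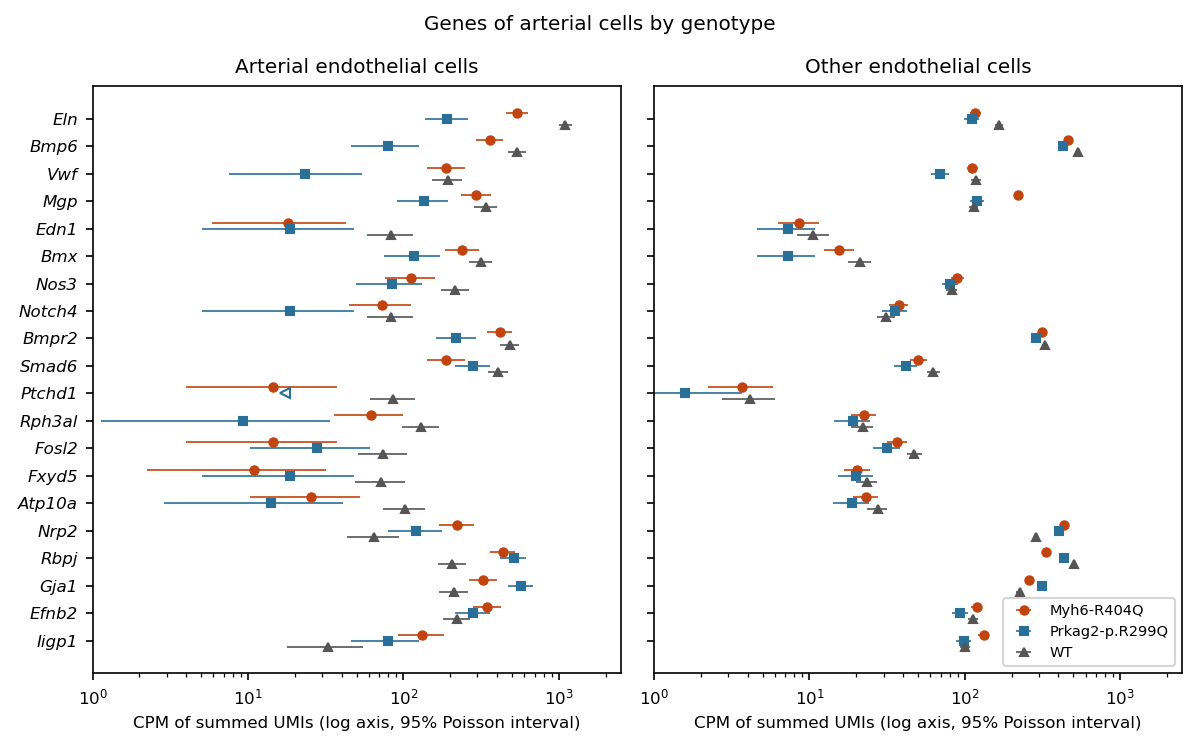
CPM of summed UMIs (horizontal log axis, 95% exact Poisson intervals) of 20 genes in arterial endothelial cells (left) and other endothelial cells (right) of the Myh6-R404Q, Prkag2-p.R299Q and WT libraries. The open arrow marks Ptchd1 in the Prkag2-p.R299Q library, which had 0 UMIs, at the upper end of its interval. Eln and Edn1 are lower in both mutants in the left panel, and for both genes the libraries lie closer together in the right panel. Bmx is lower in the Prkag2-p.R299Q library than in WT in both panels.

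Arterial cells were not uniform, and were grouped by their number of Eln UMIs. This split was chosen after the values had been seen and carries no test; it cuts a range and does not define cell types. No Eln UMI was found in 114 cells, 1 or 2 in 71 and 3 or more in 75, with median depths of 2020.0, 1770.0 and 1996 UMIs and mean depths of 4303, 3016 and 2858 UMIs. The deepest member of each library lay in the class without Eln, where it gave 14.3% of the class's UMIs in Myh6-R404Q, 28.5% in the Prkag2-p.R299Q library and 17.2% in WT, so CPM in that class weigh those barcodes most. In the classes of rising Eln, Bmx was at 54.9, 349 and 521 CPM in Myh6-R404Q, 86.0, 0 and 501 CPM in the Prkag2-p.R299Q library and 68.9, 253 and 659 CPM in WT. Bmp6 was at 109.8, 446 and 884 CPM in Myh6-R404Q and 223, 307.5 and 1078 CPM in WT, but at 86.0, 0 and 100.2 CPM in the Prkag2-p.R299Q library. Vwf was at 54.9, 194 and 566 CPM in Myh6-R404Q and 68.9, 132 and 386 CPM in WT, and had 2, 1 and 2 UMIs in the Prkag2-p.R299Q library, too few to place it. In Myh6-R404Q and WT all 3 genes were highest in the Eln-rich class; in the Prkag2-p.R299Q library this class was 7 cells and held 2 UMIs of Bmp6.

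Matrix genes were not alike in all libraries. Mgp was at 204, 194 and 793 CPM in Myh6-R404Q, 80.3, 350.0 and 401 CPM in the Prkag2-p.R299Q library and 84.8, 286 and 692 CPM in WT. Col8a1, a vessel wall collagen, was at 219.6, 524 and 612 CPM in Myh6-R404Q and 154, 428 and 779 CPM in WT. In the Prkag2-p.R299Q library it had 40, 8 and 6 UMIs. Those counts came from classes of 174388, 19998 and 19958 UMIs, so they are not levels and do not show a fall. Cd36 was lowest in the Eln-rich class of each library, with 1576, 1154 and 430.5 CPM in Myh6-R404Q, 1646, 1250.0 and 401 CPM in the Prkag2-p.R299Q library and 1574, 1208 and 632 CPM in WT. In the sum of libraries, Cxcl12 was at 222, 112 and 46.7 CPM and Gja1 at 453, 229 and 149 CPM; WT gave 55 of the 75 Eln-rich cells, so a sum also reflects the mix of genotypes.

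Other cells' RNA moved along the same split. Cardiomyocyte markers summed to 42210.0, 19040.0 and 14230.0 CPM in the classes of rising Eln in Myh6-R404Q, to 41080.0, 28600.0 and 23900.0 CPM in the Prkag2-p.R299Q library and to 37330.0, 22770.0 and 20390.0 CPM in WT. Smooth muscle markers, of which the rule limits Myh11, were not higher in the Eln-rich class. They were at 181, 551 and 333 CPM in Myh6-R404Q, Prkag2-p.R299Q and WT, against 565, 585 and 488 CPM in the class without Eln. The Prkag2-p.R299Q value in the Eln-rich class rested on 11 UMIs. Fibroblast markers, of which the rule limits Pdgfra, were lowest in the class without Eln, at 792, 1173 and 1880.0 CPM in the classes of rising Eln in Myh6-R404Q, 539, 950.1 and 902 CPM in the Prkag2-p.R299Q library and 641.5, 923 and 925 CPM in WT. Fibroblasts also express Eln, Mgp, Fn1 and Fbln2. The part of cardiomyocyte, smooth muscle and fibroblast RNA in the split was not tested.

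**Figure D4:**
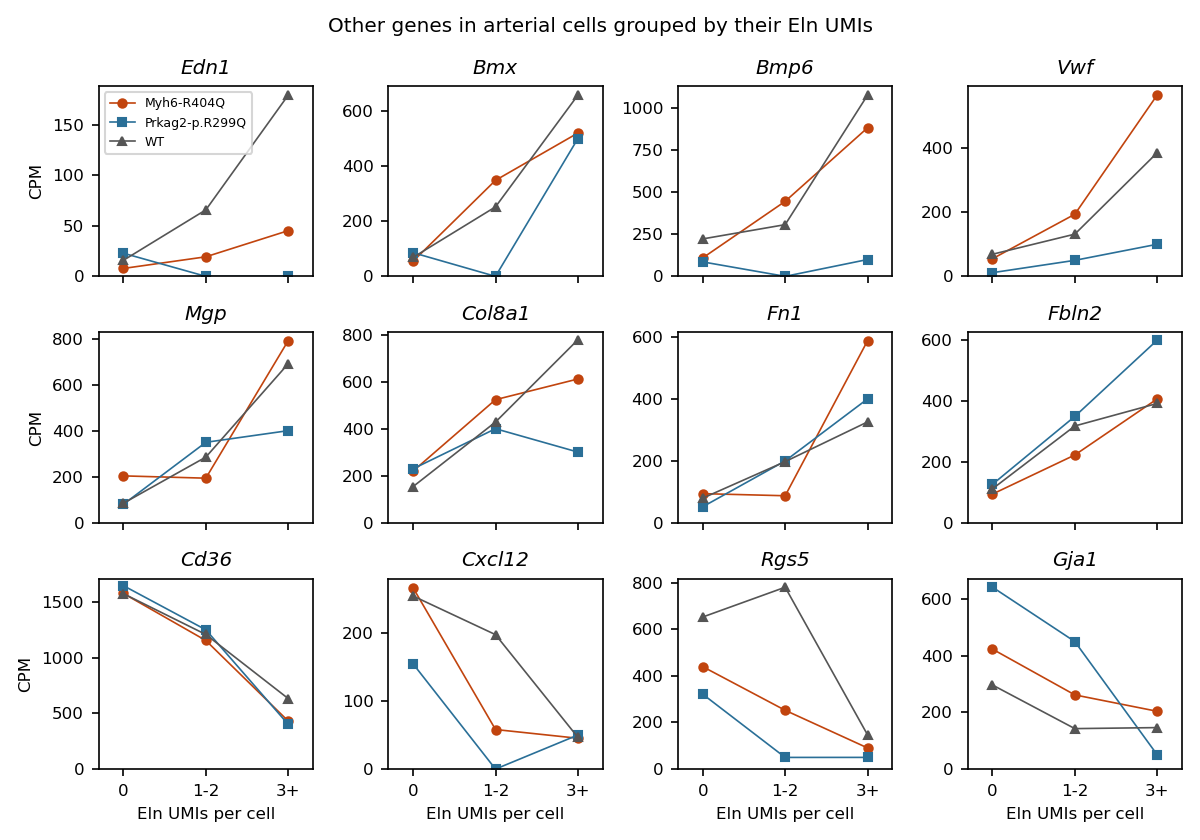
CPM of 12 genes (vertical axes from 0) in arterial endothelial cells with 0, 1 or 2, and 3 or more Eln UMIs (horizontal axis), with 1 line per library. Cd36 falls from left to right in all 3 libraries, and Bmx is highest at the right in each; the Prkag2-p.R299Q points rest on 28, 3 and 7 cells.

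Ratios of class shares to WT are given for each class, and their differences were not tested. Cells with 3 or more Eln UMIs were 13 in Myh6-R404Q and 7 in the Prkag2-p.R299Q library, against 55 in WT, or 0.103% and 0.0880% against 0.305% of all barcodes. The ratios to WT were 0.337 (0.184 to 0.616) and 0.289 (0.132 to 0.634). Cells without Eln were 27, 28 and 59, with ratios to WT of 0.652 (0.414 to 1.03) for Myh6-R404Q and 1.08 (0.687 to 1.69) for Prkag2-p.R299Q, both intervals including 1. Cells with 1 or 2 Eln UMIs were 27, 3 and 41, with ratios of 0.938 (0.577 to 1.52) and 0.166 (0.0514 to 0.536), so the ratios did not follow the order of the classes, and the Myh6-R404Q intervals overlap. Since Eln itself was lower per arterial cell in the mutants, fewer Eln-rich cells and less Eln RNA per cell cannot be told apart here. The same holds for Bmp6, Vwf and Mgp, which were highest in the Eln-rich cells of Myh6-R404Q and WT.

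**Figure D5:**
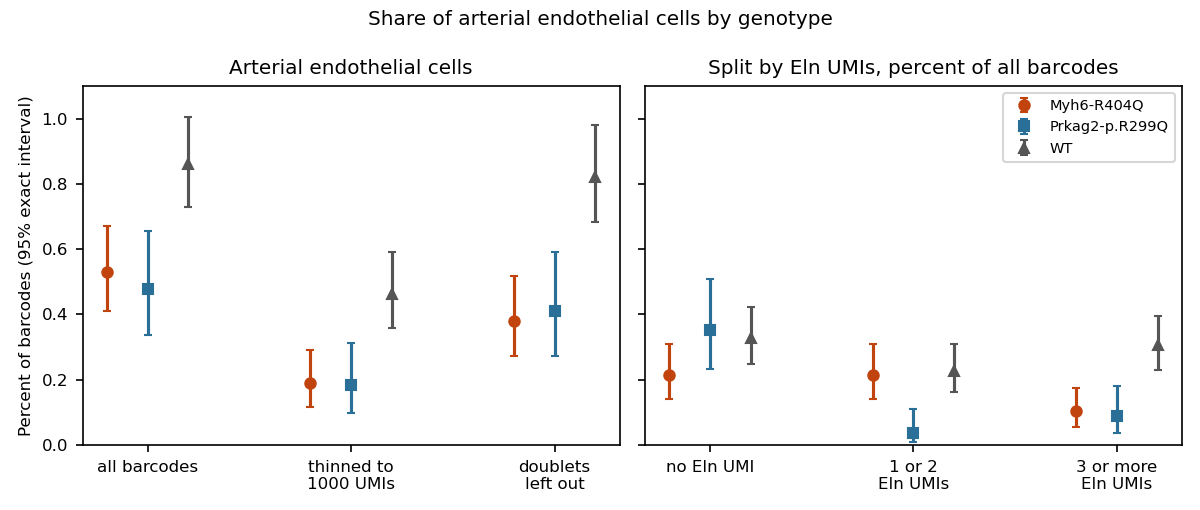
Percent of barcodes with 95% exact binomial intervals. Left, arterial endothelial cells among all barcodes, after thinning and without doublets; right, their classes by Eln UMIs among all barcodes, for Myh6-R404Q, Prkag2-p.R299Q and WT. Both mutants lie below WT in the left panel and at 3 or more Eln UMIs, and not in cells without Eln for Prkag2-p.R299Q.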

How the data were processed

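The authors deposited 3 matrices of UMI counts over 32285 genes. Reads were counted with Cell Ranger 7.0.1 against mm10, per the submitters' processing notes; no source used here says whether strand or introns were used. The Myh6-R404Q matrix repeats the other libraries under suffixes 1 and 2, with 0 differing entries, and its suffix 3 was used as that library by elimination. Free RNA was not removed.

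Members and lists were chosen with earlier results of these data known. UMIs were summed per library and cell set, and the 6 sums were tested with edgeR 4.0.16 (R 4.3.3; TMM, filterByExpr, robust quasi-likelihood, library as a block, adjusted p of at most 0.05). The block pairs the 2 cell sets of a library. Other endothelial cells, held to the same limits on excluded genes as the members, numbered 2024 in Myh6-R404Q, 960 in the Prkag2-p.R299Q library and 3023 in WT. Genotypes were described by CPM with a pseudocount of 1 CPM, exact conditional binomial intervals of folds, exact Poisson intervals of CPM, exact binomial intervals of shares and log-normal intervals of ratios, all at 95% and for counting error only. A count of 0 was read as up to 3 counts. Scrublet (scanpy 1.11.5; 0.8% expected per 1000 barcodes) called doublets, which were kept in the main values. They came to 16.9% in Myh6-R404Q, 13.97% in the Prkag2-p.R299Q library and 17.8% in WT. The steps were tested on simulated data.

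Named were the 15 highest and 15 lowest called genes of at least 2-fold, with 1 direction in 3 libraries, 50 CPM in the higher set and at least 0.5 times the CPM over all barcodes of each library. Between genotypes they were the 10 highest and 10 lowest ratios with at least 50 CPM, 20 UMIs, 2-fold and an interval beyond 1.5-fold, under the same guard. List members past these limits and 12 genes set whatever their values were added; ribosomal, mitochondrial, hemoglobin, immunoglobulin and predicted genes were left out. A gene on the lower side and a gene between genotypes that met these limits are not reported here. Positions are from GENCODE M21, in which 99.6% of genes were found. Alternatives covered scaling, DESeq2 1.42.0, filters, doublets, depth, marker number, comparison cells and libraries; those on cardiomyocyte RNA, the deepest barcodes and the pan-endothelial gate were added after seeing the data.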

Additional observations from a re-analysis of the deposited data

Results flagged for a closer look

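For 3 genes the arterial difference pointed one way in 1 library and the other way in the rest, and the difference between libraries was not tested. Gja4 had a log2 ratio of arterial over other endothelial cells of -0.24 in the Prkag2-p.R299Q library, on 1 UMI in arterial cells, against 1.40 in Myh6-R404Q and 1.28 in WT. Gja1 had -0.093 in WT, against 0.33 in Myh6-R404Q and 0.86 in the Prkag2-p.R299Q library. Myh6 had 0.25 in the Prkag2-p.R299Q library, against -0.16 in Myh6-R404Q and -0.26 in WT.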

How the results depend on the processing

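Against 231 genes called higher and 163 lower in arterial cells, DESeq2 called 127 and 57, the fit with no replicate block called 126 and 74, and leaving out 1 library gave 98 to 338 and 57 to 217. The pairing by block is given by construction, since both cell sets come from each library. Without doublets 376 were called higher and 508 lower. Lower calls were 263 with 4 or more markers and 94 with at least 1500 UMIs. Of the genes called lower, 120 of 163 were called again without doublets and 76 of 163 with 4 or more markers; of those called higher, 213 and 181 of 231. No named gene called between arterial and other endothelial cells reversed under the alternatives run; Gja1, not called, ranged from -0.31 to 0.64. The Myh6-R404Q share ratio moved from 0.616 to 0.462 without doublets, 0.409 after thinning and 0.347 with both.

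Against 217 genes 2-fold higher in Myh6-R404Q, the total became 141 with TMM scaling, 50 at 100 CPM, 142 without doublets and 84 with thinning. The 114 lower became 178 with TMM scaling, 43 at 100 CPM, 300 without doublets, 182 with 4 or more markers, 222 without the deepest 10% and 196 at up to 2% cardiomyocyte UMIs. For Prkag2-p.R299Q, 219 higher became 96 at 100 CPM and 106 with thinning, and 351 lower became 153 at 100 CPM. Log2 ratios reversed in Myh6-R404Q for Zfp385b (1.89 to -3.88 without doublets, -0.099 with 4 or more markers, -2.54 at low cardiomyocyte UMIs), C7 (-1.90 to 3.74 without doublets), Cadm2 (-2.998 to 0.40 without doublets, 1.91 without the deepest 10%, 3.03 at low cardiomyocyte UMIs) and Rbpj (1.07 to -0.53 without doublets, -0.46 with 4 or more markers). In Prkag2-p.R299Q, those with 4 or more markers were Nppa (2.78 to -0.48), Rmst (2.13 to -2.59), Dgat2 (2.03 to -2.59) and Gja5 (-1.10 to 0.01). Without doublets Bank1 went to -2.48, without the deepest 10% Nppa to -0.16, after thinning Cdk5rap2 to -0.33, and at low cardiomyocyte UMIs Dgat2 to -2.54 and Tbc1d16 to -0.32. The cause was not tested. Leaving out a replicate within a genotype was not possible with 1 library each. Sums of 38 to 155 cells limit the precision of every level given.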

Other observations

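Genes called higher in arterial cells often lay next to each other in the genome. With genes of the rule not counted as neighbours, a called-higher neighbour among tested genes was found for 52 of 231 of them (22.5%), and for 450 of 12120 tested genes with a position (3.71%). The 27 neighbouring pairs included Stmn2 and Hey1 on chromosome 3, and Tsc22d1 and Serp2 on chromosome 14. In 14 pairs the genes overlapped on opposite strands, among them Eva1c with Gm36363 and Crispld1 with Gm16070, and their reads cannot be told apart unless strand was used. The remaining 13 pairs did not overlap. Genes are not independent replicates, and no test was made.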
